A study of Mus musculus with 10 samples.

Results

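Baseline E0771 tumor cells were the tumor barcodes in which few transcripts of cell division, of the interferon response or of NF-kB signaling were counted. E0771 is a mouse mammary carcinoma line, and the tumors grew from it for 21 days in the fourth mammary fat pad of female mice. A barcode was kept when it had between 200 and 7000 genes and no more than 10% of its transcripts were mitochondrial, and on each the unique molecular identifiers (UMIs, 1 per captured RNA molecule) of 5 gene sets were added. The members were selected on these counted values. A member had at least 3 UMIs of Cdh13, Pvt1, Esx1, Fmnl2 and Aebp1 together (score E) and none of the immune genes Ptprc, C1qa, C1qb, C1qc, Csf1r and Skap1 (score X). It also had fewer than 3 UMIs of the division genes Mki67, Top2a, Cenpe, Cenpf, Kif11 and Anln (score P), fewer than 3 of the interferon genes Ifit1, Ifit2, Ifit3, Rsad2, Usp18, Herc6, Ddx60, Gbp3 and Parp14 (score I), and fewer than 3 of the NF-kB and stress genes Ccl2, Ccl7, Cxcl1, Nfkbia and Plk2 (score N). The rule found 42984 members among 65298 kept barcodes (65.8%). They were 83.6% of the 51413 barcodes that met the limits on E and X, which are called tumor barcodes here.

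The hosts were WT mice (n = 5 libraries) and EC-AGO1-KO mice (KO, n = 5 libraries), 16 weeks old and on a C57BL/6 background. The KO hosts carried a VE-Cadherin-driven Cre and floxed Ago1, so that Argonaute 1 was removed from endothelial cells, and WT littermates were the controls. The injected E0771 cells were the same unmodified line in both groups, so the Ago1 level in members does not test the genotype labels. The KO libraries named KO 2+3 and KO 5+6 each pooled 2 small tumors, and the 5 KO libraries therefore held 7 tumors. Batch 1 held 1 WT and 1 KO library and was sequenced on an earlier NovaSeq model, while batch 2 held 4 of each and was sequenced on a NovaSeq X. The members comprised 24264 WT and 18720 KO barcodes, of which 208 came from batch 1 and 42776 from batch 2.

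As background, E0771 cells derive from a spontaneous mammary tumor of a C57BL/6 mouse and grow in immune-competent hosts of that strain. Carcinoma cells in such grafts divide, answer interferon from infiltrating immune cells by switching on antiviral and antigen-presentation genes, and answer stress and cytokines through NF-kB. A tumor barcode without these programs shows mainly the housekeeping, cytoskeletal and lineage transcripts of the line. Endothelial Argonaute 1 could act on the tumor cells through vessels, secreted factors or immune cells, among other routes, and no route was tested here.

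The 2 batches differed in the number of members and in the depth per barcode. The total of UMIs per library was alike, with 8996308 (WT) and 8323896 (KO) in batch 1 and 8996066 to 10591577 in batch 2, but 1194 and 968 barcodes were kept in batch 1 against 6212 to 10190 per library in batch 2. The 2 libraries of batch 1 had a median of 8370 (WT) and 9863 (KO) UMIs per member, and 131 and 77 members. The 8 libraries of batch 2 had medians of 607 to 1157 UMIs and 3448 to 7602 members each. Members held 38501831 UMIs in all, between 720087 and 5584786 per library, and 48.4% of them had no UMI of P, I or N. Near the limits, 3210 members had exactly 3 UMIs of score E, while 3159 barcodes that met all other limits had 2. Likewise 3993 members had 2 UMIs of score P, 1363 had 2 of score I and 2068 had 2 of score N, while 2142, 621 and 1279 barcodes were left out at exactly 3. Only 205 members (0.477%) reached 3 UMIs of score E through Aebp1. The 10 libraries shared few barcode sequences: 215 of 42768 distinct member barcodes (0.503%) occurred in more than 1 library, with at most 12 in any pair of libraries. Doublets were not called, and 1376 barcodes with a tumor score of 3 or more were left out because they also held an immune UMI.

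The genes of score E were counted at high levels in members, as the rule required, and these values are a description. Pvt1, a long noncoding RNA gene next to Myc, had a UMI in 88.3% to 98.5% of the members of a library. Fmnl2, a formin that builds actin filaments, had one in 74.0% to 84.8%, and Cdh13, a cadherin held in the membrane by a lipid anchor, in 64.7% to 82.4%. Esx1, an X-linked homeobox gene of placenta and testis, was found in 77.1% and 74.0% of the batch 1 members but in 13.4% to 32.5% of those in batch 2. Aebp1, which encodes a collagen-binding protein, was found in 81.7% and 85.7% of the batch 1 members and in 9.45% to 19.0% of those in batch 2. The genes lie on several chromosomes in mm10 (GENCODE annotation of GRCm38), with Cdh13 at chr8:118283733-119324921, Pvt1 at chr15:62037986-62378096, Esx1 at chrX:137115397-137122083, Fmnl2 at chr2:52857860-53133804 and Aebp1 at chr11:5861947-5872088. Cdh13, Pvt1 and Fmnl2 span 1041 kb, 340 kb and 276 kb, whereas Aebp1 and Esx1 span 10.1 kb and 6.69 kb.

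Free RNA carried the same transcripts at a lower level. In droplets with at most 50 UMIs, the level of Pvt1 was 619 UMIs per 1000000 (median of the 2 libraries of batch 1), against 3184 in members. In batch 2 the medians were 2763 in these droplets and 11527 in members. Fmnl2 stood at 674 in the near-empty droplets and 3048 in members of batch 2, and Cdh13 at 766 and 2687. Esx1 was close to the free RNA in batch 2, with 284 in near-empty droplets and 343 in members, and the ratio of the 2 ran from 0.400 to 1.64 over the 8 libraries. Summed over the 5 genes, members exceeded the near-empty droplets by 2.45 times in WT 5 to 4.93 times in the WT library of batch 1. A barcode of the median member depth with the composition of free RNA would hold 2.44 to 8.19 UMIs of score E in batch 2, highest in WT 5, while the members themselves had a median of 9.0 to 19.0. In each of the 8 libraries this was close to or above the limit of 3 UMIs. Immune barcodes (score X of at least 3) gave the other reference. In batch 1 Cdh13 was found in 2.01% of 299 immune barcodes of the WT library (median depth 2775 UMIs) and 2.1% of 334 of the KO library (2888 UMIs), and Pvt1 in 22.4% and 24.6%. Batch 2 had only 3 to 78 immune barcodes per library. In KO 2+3, which had 78 (median depth 502.5 UMIs), Cdh13 was found in 14.1% and Pvt1 in 47.4% of them, against 64.7% and 97.2% of members.

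**Figure D1:**
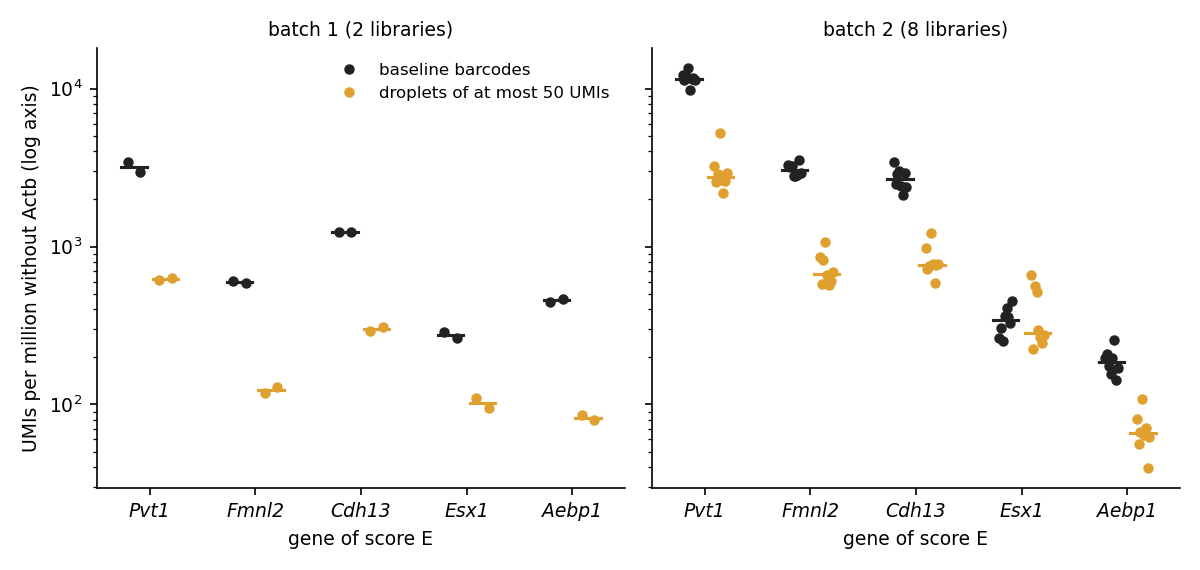
Level of the 5 genes of score E in members and in droplets with at most 50 UMIs (free RNA), by batch, in UMIs per 1000000 without Actb on a log axis, with 1 point per library. Pvt1, Fmnl2 and Cdh13 lie well above the free RNA in every library, while the Esx1 points of batch 2 overlap with it.

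Genes outside the rule that mark mesenchymal and epithelial cells were then counted in the members. Values from here on are CPM, that is UMIs per 1000000 of the summed members of a library, with Actb left out of the total and TMM scaling applied. They are not divided by gene length, so an order of genes given here is an order of counted UMIs. Vim, the intermediate filament of mesenchymal cells, ranged from 1830 to 4732 CPM over the 10 libraries. Zeb2 ranged from 434 to 972 CPM and Zeb1 from 197 to 451 CPM, and both encode repressors of the E-cadherin gene. Vim, Zeb2 and Zeb1 were the most abundant of the 15 mesenchymal genes listed. The fibronectin gene Fn1, also on that list, was low in batch 2, at 1.66 to 4.32 CPM. In batch 1 it stood at 69.9 CPM in the WT and 15.4 CPM in the KO library. Cdh1, which encodes E-cadherin, had 77 UMIs in all libraries together, and the surface marker Epcam had 63. The keratin genes Krt18, Krt19, Krt7 and Krt5 had 3, 10, 4 and 5 UMIs, and Cldn3, a tight junction claudin, had none. Of the 18 epithelial genes listed, Tjp1 (175 to 655 CPM) and Krt8 (45.6 to 212 CPM) were the highest, followed by Ocln at 8.74 to 14.3 CPM. Myc ranged from 202 to 493 CPM and Trp53 from 81.9 to 124 CPM.

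Free RNA held several of these transcripts at similar levels in 3 WT libraries of batch 2. The level of Vim in members over that in near-empty droplets, both without TMM scaling, was 0.949 in WT 1, 1.16 in WT 4 and 1.19 in WT 5, and 2.22 or more in the other 7 libraries. The ratio of Krt8 was 0.819, 0.666 and 1.03 in the same 3 libraries and 1.45 to 3.40 in the others. Myc had 1.15, 1.33 and 1.31 there and 2.00 to 4.14 elsewhere, while Trp53 lay below 1 in all 3. Zeb1 stood above the free RNA in every library, by 1.96 to 3.91 times, as did Tjp1, by 2.53 to 3.95 times, and Zeb2, by at least 1.20 times.

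Markers of other cell types were low in members, with exceptions among stromal genes. The 10 T cell genes summed to 1.09 to 21.4 CPM per library, with Themis highest on average, and the defining genes Cd3e, Cd3d and Cd3g had 18, 6 and 8 UMIs in all. The 12 macrophage and monocyte genes summed to 55.7 to 87.4 CPM, led by Apoe at 14.8 CPM on average, and the 6 B cell genes to 1.09 to 18.2 CPM. The rule held Ptprc and the C1q genes at 0. Fibroblast genes summed to 166 to 592 CPM, of which Col1a1 was the largest at a mean of 228 CPM. Col3a1 ranged from 9.47 to 169 CPM, Pdgfra from 19.2 to 33.1 CPM and Col1a2 from 2.29 to 106 CPM. Dcn and Lum stood at 0.573 to 21.5 CPM and 0 to 1.09 CPM. The level of Col1a1 in members was 0.317 to 0.556 times that in near-empty droplets in 7 of the 8 libraries of batch 2, 1.11 times in KO 2+3, and 2.16 and 4.01 times in the WT and KO libraries of batch 1. Endothelial genes summed to 46.6 to 59.1 CPM in the 8 libraries of batch 2, but to 203 CPM in the WT and 95.4 CPM in the KO library of batch 1. Barcodes with at least 10 UMIs of the 18 endothelial and fibroblast genes together made up 146 members (0.340%), including 5 of 131 and 2 of 77 in batch 1. Globin transcripts stood at 33.9 and 13.8 CPM in batch 1 and at 2.30 CPM or less in batch 2.

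**Figure D2:**
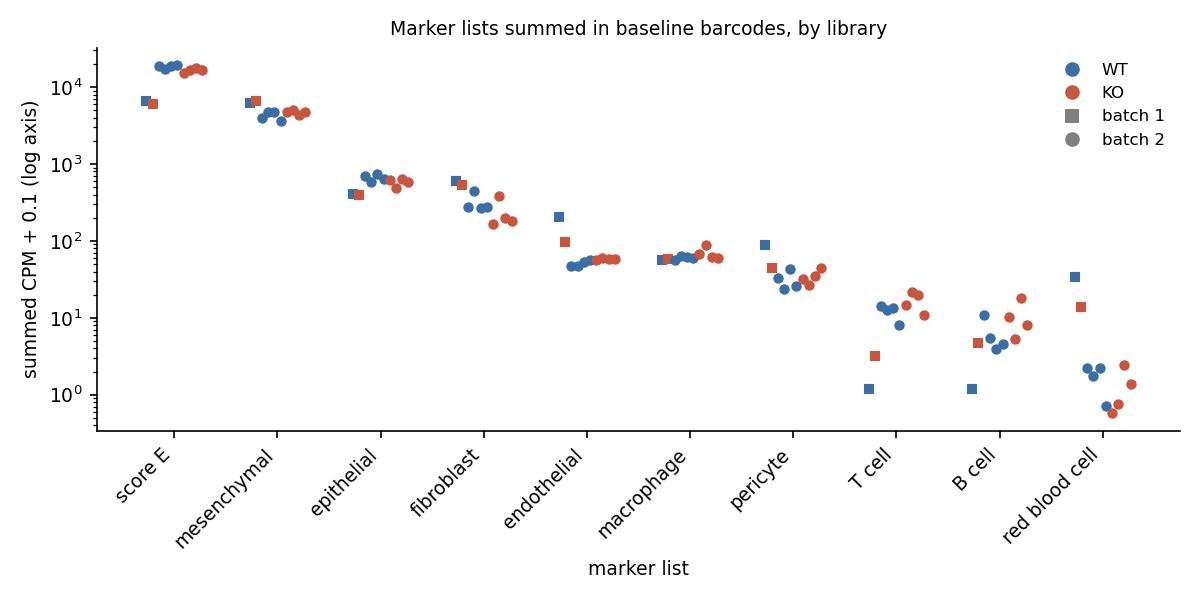
Summed CPM of each marker list in the members, plus 0.1, on a log axis, with 1 point per library, colored by group and shaped by batch. Mesenchymal genes sum to 3610 CPM or more in every library, epithelial genes to 400 to 739 CPM, and T cell genes to 21.4 CPM or less.

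The most abundant transcripts of the members were cytoskeletal, ribosomal and nuclear. Actb, the cytoplasmic actin, took 10.0% of all member UMIs on average, with 1.79% and 1.98% in batch 1 and 8.49% to 16.4% in batch 2. By the mean over all libraries the next were Pvt1 of score E (0.883%), Rpl37 (0.743%) and the tubulin gene Tubb5 (0.668%). They were followed by Set (0.352%), which encodes a histone chaperone, Sdc4 (0.341%), a cell surface proteoglycan, and Cbx3 (0.339%), a heterochromatin protein. In batch 1 Rpl37 lay above Pvt1, at 11714 against 3408 CPM without TMM scaling in WT and 11211 against 2961 in KO. KO 1 had the same order (10717 against 9810), and in the other libraries of batch 2 Pvt1 was higher. Tmsb10, an actin monomer-binding peptide, averaged 0.305%, but this came from batch 1, where it took 1.33% and 1.55%. The paraspeckle RNA Neat1 (0.278%), Vim (0.266%) and Notch2 (0.265%), a receptor, were also among the 15 largest. Mitochondrial transcripts made up 3.01% and 2.93% of member UMIs in batch 1 and 0.213% to 0.734% in batch 2, lowest in WT 4.

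Members of the 2 batches differed in most genes. Of 10996 genes tested, 7196 (65.4%) differed between batches (edgeR quasi-likelihood test with genotype as a covariate, Benjamini-Hochberg adjusted p under 0.05), of which 3713 (33.8%) were higher and 3483 (31.7%) lower in batch 2. Of 80 ribosomal protein genes 78 were lower in batch 2, with a median log2 fold change of -3.21, and 12 of 13 mitochondrially encoded genes were lower (median -2.50). Genes of glycolysis and the hypoxia response were lower in 18 of 25 cases (median -1.45), and heat shock genes in 15 of 17. Cell cycle genes outside score P were higher in 24 of 38 cases and lower in 3, with a median of 1.12. This is a description, since the limit on score P had removed 55.0% and 59.0% of the tumor barcodes of batch 1 but 5.19% to 15.6% of those of batch 2. The genes of score P themselves summed to 90.7 (WT) and 78.5 CPM (KO) in members of batch 1 and to 379 to 607 CPM in batch 2. Over the cell cycle genes outside score P, members lay below the other tumor barcodes by a median of -0.996 (WT) and -1.09 (KO) on the log2 scale in batch 1 and of -0.39 to -0.21 in batch 2. Among genes that reached a mean of 100 CPM in a batch, the largest rises in batch 2 were those of Gm10800 (6.59), Gm10801 (6.30), the adhesion gene Chl1 (4.59), Gm21738 (4.55) and the mitotic gene Cdca2 (4.44). Among the largest falls were those of Gm10076 (-8.43), Rpl38 (-6.26), mt-Atp8 (-6.21) and Ndufa5 (-6.20). Libraries of the same batch resembled each other, with Pearson's r across genes of 0.974 to 0.993 over the 28 pairs of batch 2 and 0.980 for the pair of batch 1, against 0.685 to 0.735 over the 16 pairs between batches. Genes are not independent replicates, and these r values are a description. Sequencer, depth per barcode and batch cannot be told apart.

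The batch difference went with the length of the gene. Genes under 10 kb had a median log2 fold change of -1.53 (batch 2 against batch 1), those of 10 to 30 kb -0.45, those of 30 to 100 kb 0.53 and those over 100 kb 1.28. Genes over 100 kb gave 11.5% and 10.8% of member UMIs in batch 1 and 27.8% to 33.2% in batch 2. A smaller shift in the opposite direction along gene length appeared between KO and WT. The fitted KO against WT value was above 0 in 68.2% of 2234 genes under 10 kb, 57.4% of 3499 genes of 10 to 30 kb, 36.8% of 3382 genes of 30 to 100 kb and 41.8% of 1872 genes over 100 kb, with medians of 0.09, 0.03, -0.06 and -0.06. In batch 2, KO 1 had the lowest share of UMIs from genes over 100 kb (27.8%) and WT 1 the highest (33.2%). The groups overlapped, with KO 4 (30.9%) above WT 3, 4 and 5 (30.1%, 30.5% and 29.2%). Whether intron reads were counted is not given in the sources used here, and the part of gene length in the results below was not tested.

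The share of tumor barcodes at baseline did not differ detectably between WT and KO tumors. In batch 1 it was 26.4% in the WT and 21.0% in the KO library. In batch 2 it was 87.4%, 84.1%, 89.8% and 79.5% in WT 1, 3, 4 and 5, and 85.8%, 75.8%, 84.3% and 84.1% in KO 1, 2+3, 4 and 5+6. The groups overlapped in batch 2, with KO 2+3 lowest and WT 4 highest. The means over 5 libraries each were 73.4% ± 26.6 (SD) for WT and 70.2% ± 27.8 (SD) for KO tumors, a difference of -3.23 percentage points (two-sided exact permutation within batches, p = 0.286, adjusted p = 0.667 over 7 measures, smallest p the design allows 0.0143). Among all kept barcodes the members were 58.7% ± 27.2 of WT and 52.1% ± 25.5 of KO barcodes (SD, n = 5 each, exact permutation p = 0.157, adjusted p = 0.550).

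Each barcode was then thinned to 500 UMIs, and 11612 WT and 9755 KO barcodes below that depth were left out. The share was then 96.3% and 95.3% in batch 1. It was 93.8% to 97.0% in WT and 92.5% to 94.6% in KO libraries of batch 2. Thinned means were 95.6% ± 1.32 in WT and 94.2% ± 1.07 in KO (SD, n = 5 each), a difference of -1.42 points (exact permutation p = 0.1, adjusted p = 0.550). At this depth few barcodes reached 3 UMIs of a score, so that at least 92.5% of tumor barcodes were at baseline in every library and the thinned share could separate the libraries little. Median UMIs, genes per barcode, the mitochondrial share and the Actb share of members did not pass the same test either (unadjusted exact permutation p of 0.514, 0.643, 0.886 and 0.657). Here and in all results below, replicates are tumors or pools of tumors, and p-values measure the spread between the libraries.

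**Figure D3:**
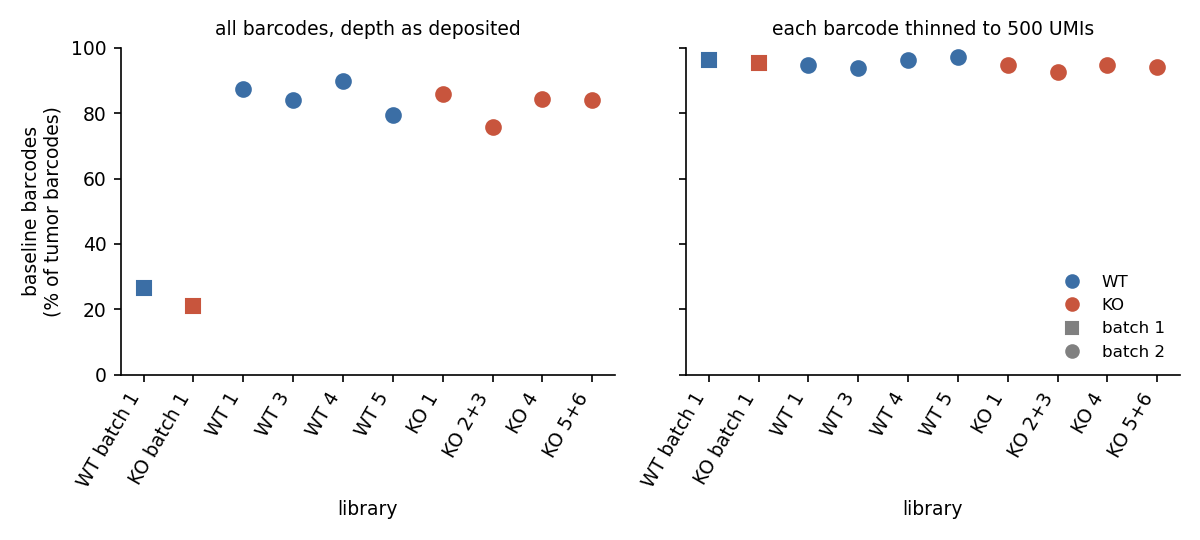
Members as a percentage of tumor barcodes in each library, before (left) and after (right) thinning every kept barcode to 500 UMIs, with 1 point per library, colored by group and shaped by batch. Batch 1 lies at 21.0% and 26.4% before thinning and at 95.3% and 96.3% after it, and WT and KO libraries of batch 2 overlap in both panels.

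No gene passed the test between KO and WT members. Of 10996 genes, 0 (0.0%) were called by edgeR's quasi-likelihood test with batch as a covariate (smallest Benjamini-Hochberg adjusted p = 0.807), and DESeq2 called 0. At an unadjusted p under 0.05 edgeR gave 648 genes (5.89%), 312 (2.84%) above 0 and 336 (3.06%) below 0, and DESeq2 gave 506. The precision was enough to limit large differences. The 95% interval of the log2 fold change lay within 1 on either side of 0 for 10116 genes (92.0%), and for 99.7% of the 2156 genes with a mean of at least 100 CPM. In batch 2 the 4 KO libraries lay above all 4 WT libraries for 187 genes (1.7%) and below them for 164 (1.49%), and the order was the same in batch 1 for 65 (0.591%) and 93 (0.846%) of all genes tested. In bulk sums such as these, fewer expressing cells and less RNA per cell cannot be told apart.

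None of the genes with the smallest unadjusted p is a called difference (adjusted p of 0.807 for each by edgeR), and whether they share functions was not tested. Rnf167, which encodes a ubiquitin ligase of the endosomal system, stood at 49.2 CPM in the WT and 63.1 CPM in the KO library of batch 1. In batch 2 it stood at 43.5, 50.7, 30.7 and 42.6 CPM in WT and 60.4, 81.2, 63.2 and 68.7 CPM in KO. All KO libraries lay above all WT libraries (log2 fold change 0.66, SE 0.15, unadjusted p = 0.000333 by edgeR). Lancl2, a gene of the LanC-like family, stood in batch 1 at 10.9 (WT) and 6.15 CPM (KO), and in batch 2 at 17.0, 17.98, 26.2 and 15.4 CPM in WT and 9.98, 11.0, 9.47 and 9.96 CPM in KO. Within each batch every KO library lay below the WT libraries (log2 fold change -0.91, SE 0.19, unadjusted p = 0.000157 by edgeR). The other fitted values above 0 were those of Gm11335 (1.25, SE 0.28), the F-box gene Fbxo17 (0.73, SE 0.17), the endoplasmic reticulum channel gene Tmem38a (1.28, SE 0.33, from 73 UMIs in all) and Sypl (0.47, SE 0.12). Those below 0 were the lipid transfer gene Osbpl3 (-0.55, SE 0.13), the SUMO ligase gene Pias2 (-0.43, SE 0.11), the matrix gene Tnc (-1.42, SE 0.38) and the galactosyltransferase gene B3galt2 (-0.62, SE 0.17).

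Vim, Myc, Trp53 and Ago1 did not pass the test either. Vim averaged 2709 CPM in WT and 3216 CPM in KO members (log2 fold change 0.25, SE 0.15), and Myc 375 and 404 CPM (0.12, SE 0.12). When single libraries were left out, the value of Vim ranged from 0.17 without WT 5 to 0.34 without WT 4. It was 0.09 without WT 5 and both pooled KO libraries. Vim in members was near the level of free RNA in WT 1, WT 4 and WT 5, and the part of free RNA in its value was not tested. The value of Myc ranged from 0.06 without WT 1 to 0.18 without WT 5. Trp53 averaged 98.5 and 96.1 CPM (-0.02, SE 0.14), a value whose sign changed when single libraries were left out. Ago1 itself was sparse, with 187 UMIs in all and 4.63 to 9.84 CPM per library, and its fitted value was 0.14 (SE 0.23), which was 0.03 without KO 5+6 and -0.08 without both pooled KO libraries. Cxcr4, a chemokine receptor, had 65 UMIs (0.823 to 3.27 CPM) and the transcriptional corepressor gene Runx1t1 had 84 (0 to 3.10 CPM). Both fell below the filter on low counts. Without the filter their fitted values were 0.25 (SE 0.43) and 0.03 (SE 0.39), with adjusted p of 0.917 and 0.976 by edgeR, and the wide errors left sizable differences undetectable at this depth.

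Of the gene groups with at least 10 tested genes, the interferon response had the median farthest from 0. Interferons act through cell surface receptors and switch on antiviral enzymes, guanylate-binding proteins and antigen processing. The group described here holds 29 tested genes that were not in score I, although barcodes rich in score I had been left out of the members. None was called, all 29 fitted above 0 in KO and 13 had an unadjusted p under 0.05, against 50.6% above 0 and 2.84% with such a p among all tested genes. Their median log2 fold change was 0.51, and that of all genes was 0.00. Without the filter on low counts, edgeR called 2 of 31 genes of the group higher in KO, Gbp7 (0.78, SE 0.15, adjusted p = 0.000405) and Iigp1 (1.23, SE 0.26, adjusted p = 0.00387), against 14 of 26071 genes (0.0537%) over all. That share is not a like background, since only 10996 genes passed the filter and the rest were sparse. Gbp7 and Iigp1 both passed the filter, and in the filtered fit they had larger standard errors and were not called. Why the errors changed was not tested. The share of tumor barcodes that the rule removed for score I was 1.39% to 2.07% in WT and 2.52% to 3.74% in KO libraries of batch 2, and 14.1% in WT and 20.2% in KO of batch 1. These shares are a description, since score I was part of the rule, and a fixed limit of 3 UMIs depends on depth. Members of batch 2 had medians of 607 to 673 UMIs in WT 1, 3 and 4, 1157 in WT 5 and 712 to 842 in KO libraries.

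Library by library, the interferon values rested on both ends of the range in batch 2. The summed level of the 31 listed genes in the files was 984, 1025, 1222 and 609 CPM in WT 1, 3, 4 and 5, and 1320, 1585, 1136 and 1176 CPM in KO 1, 2+3, 4 and 5+6. WT 5 was lowest and KO 2+3 highest, and WT 4 lay above 2 of the KO libraries. In batch 1 the order was the other way, with 978 CPM for WT and 891 CPM for KO, and 13 of 29 genes were above the WT value in KO. WT 5, which had the deepest members of batch 2 (median of 1157 UMIs), had 0 of 29 genes above the WT mean of its batch. Without WT 5 the median log2 fold change was 0.31, with 25 of 30 tested genes above 0 and 6 at an unadjusted p under 0.05. Without KO 2+3 it was 0.37, with 7 at such a p. Without WT 4 it was 0.69, with 29 of 29 above 0 and 23 at such a p. Without WT 5 and both pooled KO libraries it was 0.27, with 26 of 30 genes above 0 and none at an unadjusted p under 0.05. When the limits on P, I and N were dropped and all tumor barcodes were summed, 30 of 30 tested genes fitted above 0 with a median of 0.44. The T cell marker genes summed to 9.86 CPM ± 5.46 in WT and 13.9 CPM ± 7.44 in KO members (SD, n = 5 each), and the macrophage genes to 59.5 CPM ± 3.82 and 67.0 CPM ± 11.9, both highest in KO 2+3. Their part in the interferon values was not tested.

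Single interferon genes showed the same spread. Oasl2, a member of the oligoadenylate synthetase family, stood at 20.8, 18.3, 30.0 and 13.0 CPM in WT and 31.1, 34.1, 33.3 and 32.4 CPM in KO libraries of batch 2, and in batch 1 at 10.9 (WT) and 13.8 CPM (KO). Its groups did not overlap within either batch (log2 fold change 0.65, SE 0.19, adjusted p = 0.807 by edgeR). Oasl2, Oas3, Ifi44 and Cmpk2 were the 4 genes of 29 whose KO libraries lay above all WT libraries in batch 2, where 1.7% of all genes did, and Oasl2 alone of the 4 had the same order in batch 1. Ifi44 there had 28.4 CPM in the WT library and 16.9 CPM in KO. Gbp7, a guanylate-binding protein gene, stood at 116, 122, 95.7 and 46.9 CPM in WT and 182, 281, 102 and 140 CPM in KO of batch 2, and its groups overlapped (log2 fold change 0.82, SE 0.27). Dtx3l, a ubiquitin ligase gene, had 0.51 (SE 0.20) and the immunity-related GTPase gene Iigp1 1.28 (SE 0.48). The most abundant genes of the group had small values, with 0.08 (SE 0.14) for Rnf213 and 0.12 (SE 0.24) for Bst2, which encodes the virus-tethering protein tetherin.

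**Figure D4:**
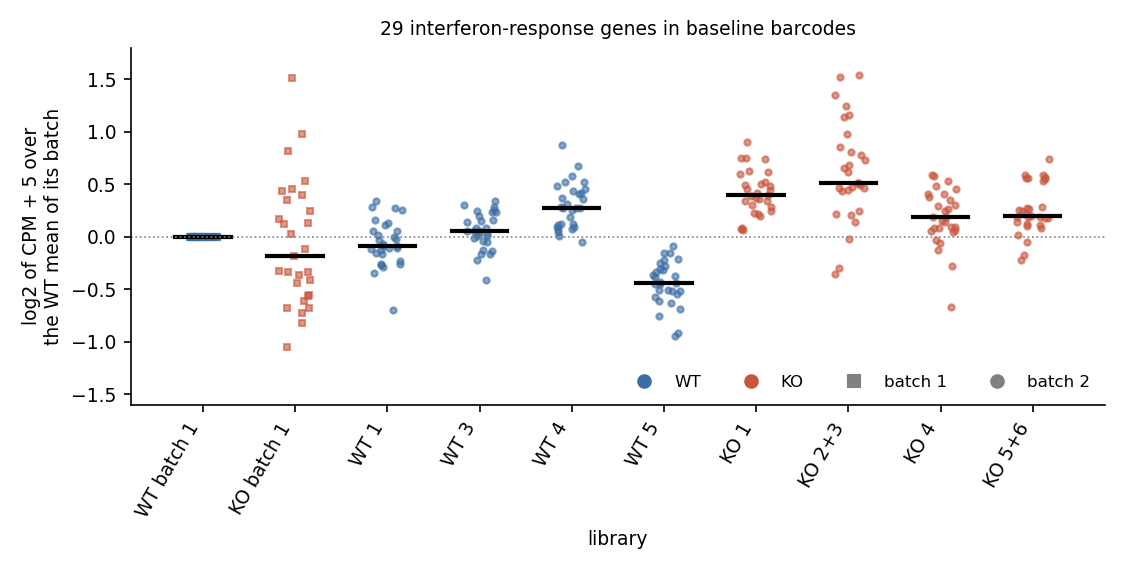
Each of the 29 tested interferon-response genes in the members of each library, as log2 of CPM + 5 over the mean of the WT libraries of the same batch (1 point per gene, black bar the median, colors for the groups and shapes for the batches). KO 1 and KO 2+3 have the highest medians (0.40 and 0.52), WT 5 the lowest (-0.44), and the KO library of batch 1 lies at -0.18.

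Antigen presentation, which interferon also drives, had a smaller median, whose size moved with KO 2+3. Of 18 tested genes of MHC class I presentation 16 fitted above 0 and 3 had an unadjusted p under 0.05, with a median of 0.26, which was 0.12 without KO 2+3, again with 16 of 18 above 0, and 0.33 without WT 4. B2m, the invariant chain of class I molecules, averaged 357 CPM ± 112 in WT and 397 CPM ± 84.3 in KO (SD, n = 5 each, log2 fold change 0.15, SE 0.16). H2-D1 had 0.03 (SE 0.15), and the peptide loading genes Tap1 and Tapbp had 0.32 (SE 0.19) and 0.33 (SE 0.14). On the log2 scale of CPM + 5 against the WT mean of batch 2, KO 2+3 had all 18 genes above 0 and a median of 0.45. KO 1 had 15 above 0 and a median of 0.22, and the medians of KO 4 and KO 5+6 were 0.03 and 0.07, with 10 and 12 genes above 0. Among WT libraries WT 4 was highest with a median of 0.16, and in batch 1 the KO library had -0.02 with 9 of 18 above 0. KO 2+3 also had the highest summed levels of macrophage genes (87.4 CPM against 55.7 to 67.3 CPM in the other 9 libraries) and of T cell genes (21.4 CPM against 1.09 to 19.96 CPM), and its level of Cd74, the class II invariant chain gene, was 23.1 CPM against 5.46 to 10.5 CPM. The part of these cell types in the class I values was not tested.

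NF-kB and early-response genes outside score N fitted above 0 in 20 of 24 cases, with a median of 0.19 and 4 at an unadjusted p under 0.05. Without WT 1 the median was 0.12, with 15 of 24 genes above 0. Without both pooled KO libraries it was 0.07, again with 15 of 24 above 0 and none at an unadjusted p under 0.05. Fosb, an early-response transcription factor gene, stood at 17.9, 51.5, 53.6 and 49.2 CPM in WT and 61.8, 103, 61.9 and 106 CPM in KO of batch 2, and at 33.9 and 53.8 CPM in batch 1. WT 1 was low, and the KO libraries lay above the WT libraries in both batches (log2 fold change 0.92, SE 0.25, adjusted p = 0.807 by edgeR). Without the filter on low counts edgeR called it (0.88, SE 0.15, adjusted p = 6.93e-05). The more abundant genes of the group had 0.03 for Fosl1, 0.19 for Jun and -0.10 for Nfkb1. Ribosomal protein genes fitted above 0 in 64 of 80 cases with a median of 0.10, and genes of ribosome biogenesis and MYC targets in 17 of 21 with a median of 0.10. Without WT 1 the ribosomal protein genes had a median of 0.04 with 45 of 80 above 0, and without batch as a covariate -0.04 with 27 of 80. Without WT 5 the median was 0.17. The ribosome biogenesis and MYC target genes had 0.05 with 14 of 21 above 0 without WT 1, and 0.14 without KO 4. Of all tested genes under 10 kb, 68.2% lay above 0, and the part of gene length in these 2 groups was not tested.

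Matrix genes had fitted values mostly below 0, and the lowest of these rested on very few barcodes. Of 23 tested matrix genes 15 fitted below 0, with a median of -0.20, 1 with an unadjusted p under 0.05 above 0 and 4 below, and without WT 4 the median was -0.11. The 4 tested fibroblast marker genes all fitted below 0, with a median of -0.42, which was -0.22 with 1 of 5 tested genes above 0 without WT 3. Their part in the matrix values was not tested. Tnc, the gene of the matrix glycoprotein tenascin C, stood at 66.7 CPM in the WT and 1.54 CPM in the KO library of batch 1, and in batch 2 at 5.35, 5.45, 8.81 and 10.7 CPM in WT and 3.57, 5.85, 3.33 and 3.06 CPM in KO. Of its 61 UMIs in WT members of batch 1, 59 lay in 1 barcode. This barcode held 5764 UMIs, 183 of them from endothelial and fibroblast markers, and also 38 of 64 UMIs of the fibronectin gene Fn1. Without the barcodes that held at least 10 UMIs of those markers, the log2 fold change of Tnc went from -1.42 to -0.63 (SE 0.32), and the median over the 17 matrix genes then tested to -0.12. Among the more abundant matrix genes Lamc1, a laminin chain, had -0.24 (SE 0.11), Col4a1, a basement membrane collagen, -0.15 (SE 0.12) and Timp2, an inhibitor of metalloproteinases, 0.04 (SE 0.13).

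Angiogenic factors, through which tumor cells act on vessels, had a median of 0.14 over 10 tested genes, with 6 above and 4 below 0. The 2 genes with an unadjusted p under 0.05 both lay below 0. It was 0.03 without WT 1 and -0.05 without batch as a covariate. Vegfa averaged 28.2 CPM ± 6.80 in WT and 33.0 CPM ± 10.3 in KO (SD, n = 5 each, log2 fold change 0.19, SE 0.15). Angpt2, a ligand of the TIE2 receptor, averaged 64.3 CPM ± 31.3 and 49.6 CPM ± 23.7 (-0.38, SE 0.14), and the growth factor gene Pdgfa had -0.10 (SE 0.20). Signals to myeloid and T cells had a median of 0.05 over 19 tested genes, which was 0.02 without KO 2+3 (10 above 0) and 0.09 without WT 1. Among them the cytokine gene Mif had 0.23 (SE 0.14), and Cd47, which restrains phagocytosis, stood at 456 CPM in both groups (0.00, SE 0.12).

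The 13 Argonaute and microRNA pathway genes had a median of -0.12 with 9 below 0 (-0.08 without KO 1), and the most abundant, Tnrc6b and Ago2, had -0.11 (SE 0.13) and -0.12 (SE 0.14). Genes of hypoxia and glycolysis had a median of 0.02 (13 of 25 above 0), p53 targets 0.11 (10 of 15), apoptosis genes -0.00 (12 of 24), cell cycle genes outside score P -0.03 (17 of 38) and heat shock genes 0.01 (10 of 17). Lipid and sterol synthesis genes had -0.05 with 7 of 23 above 0, actin genes 0.03 (15 of 22), mesenchymal genes 0.04 (9 of 13) and mitochondrially encoded genes 0.05 (9 of 13). Among the mesenchymal genes Zeb1 averaged 370 CPM ± 90.4 in WT and 295 CPM ± 63.4 in KO (-0.32, SE 0.12), with an unadjusted p of 0.0127 by edgeR. Of 4 tested epithelial genes 3 fitted above 0, of 7 nuclear noncoding RNAs 3 did, with -0.39 (SE 0.13) for Malat1 and 0.33 (SE 0.14) for Neat1. Endothelial genes had 2 of 4 above 0 with a median of -0.12, but 4 of 5 above 0 and a median of 0.13 without the WT library of batch 1. Pericyte genes had 2 of 4 above 0 with a median of -0.07 (0.06 without WT 4). The 9 tested macrophage genes had a median of 0.08 (-0.04 without WT 1).

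The medians of p53 targets and actin genes kept their sign but not their size when 1 library was left out. Those of p53 targets were 0.07 without WT 1 and 0.21 without WT 4, and those of actin genes 0.0044 (12 of 22 above 0) without KO 1 and 0.08 without KO 4. When 1 library was left out at a time, the median of 11 of 27 lists took the other sign in at least 1 case, so that for these no direction is given. Lipid and sterol synthesis genes ranged from -0.15 without WT 1 to 0.06 without WT 5, where 15 of 23 were above 0. Cell cycle genes had 0.04 without WT 4, with 25 of 38 above 0, and mitochondrially encoded genes -0.07, with 0 of 13 above 0, whereas without WT 5 the latter had 0.21, with 11 of 13 above 0. Hypoxia and glycolysis genes ranged from -0.04 without WT 4 to 0.09 without KO 4, heat shock genes from -0.06 without WT 1 to 0.07 without WT 4, and apoptosis genes from -0.05 without KO 2+3 to 0.05 without KO 4. Mesenchymal genes ranged from -0.0049 without WT 5 to 0.10 without the KO library of batch 1, and nuclear noncoding RNAs from -0.08 without WT 1 to 0.06 without the KO library of batch 1.

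**Figure D5:**
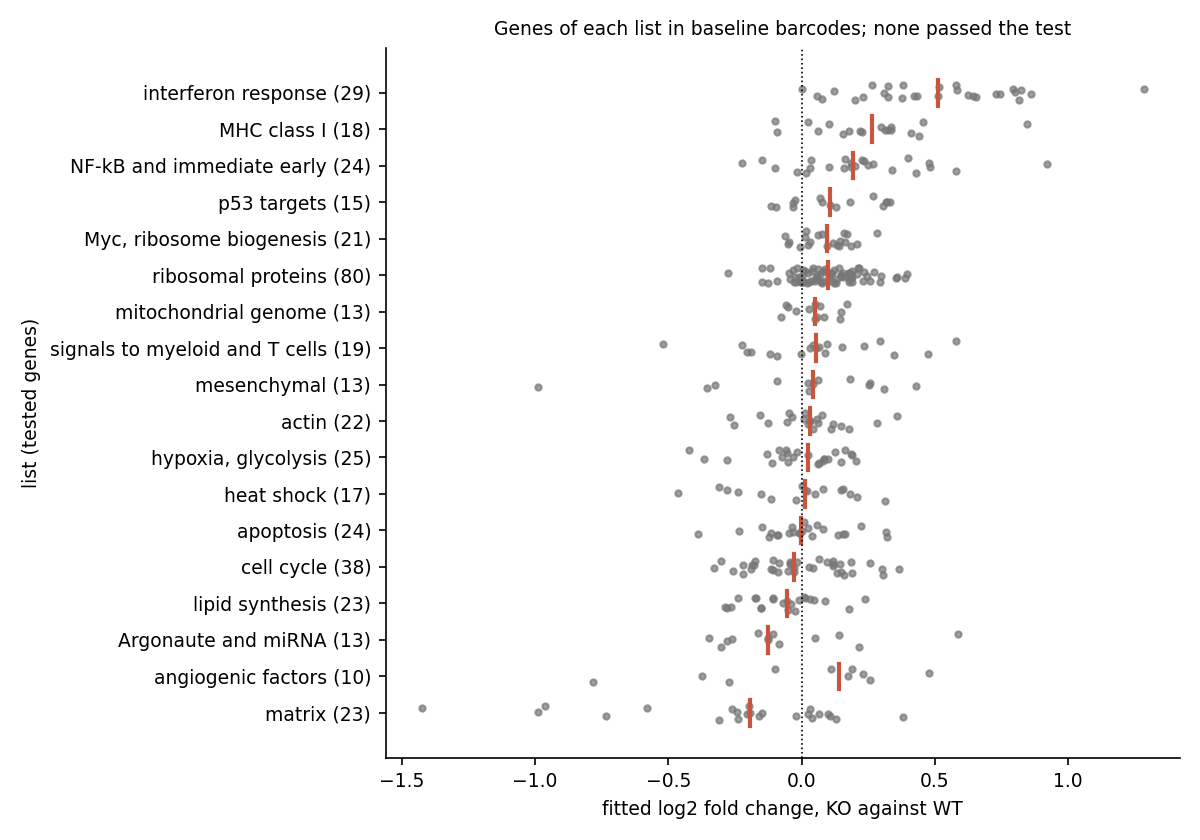
Fitted log2 fold change of KO against WT members for each tested gene of each list (gray points), with the median of the list as a colored bar and the median of all tested genes as a dotted line. Interferon-response genes lie to the right with a median of 0.51, matrix genes to the left with -0.20, most other lists straddle 0, and no gene passed the test.

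Members were compared with the 8429 other tumor barcodes of the same libraries, and these values are a description since the rule used the same cells. The mean log2 difference over the 10 libraries was lowest for Gm17268 (-2.17), followed by the mitotic genes Ube2c (-1.19), Hmmr (-1.17), Sgo2a (-1.14), Prc1 (-1.11) and Ect2 (-1.05), each of them lower in 10 of 10 libraries. Cell cycle genes outside score P were lower in 35 of 38 cases, with a median of -0.48, and interferon genes outside score I in 28 of 29 (median -0.30). NF-kB and early-response genes outside score N differed less, with 17 of 23 lower and a median of -0.08. In WT 5 the median of these NF-kB genes was 0.03. On the other side stood Gm42418 (0.52), the heme oxygenase gene Hmox1 (0.50), the metallothionein genes Mt2 (0.41) and Mt1 (0.32) and Rpl37 (0.38). Hmox1 varied between libraries, from 16.2 CPM in KO 2+3 to 111 CPM in WT 5 and 123 CPM in the KO library of batch 1. Ribosomal protein genes were higher in 72 of 80 cases (median 0.14) and genes of hypoxia and glycolysis in 22 of 24 (median 0.12), while the median of all 9800 genes was 0.00. The other tumor barcodes were deeper, with medians of 1066 to 2102 UMIs in batch 2.

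The effect of KO differed between members and the other tumor barcodes for 2 of 10661 genes (0.0188%) in a test of the interaction with the library as a block (edgeR quasi-likelihood test, Benjamini-Hochberg adjustment). Postn, which encodes the matrix protein periostin, had an interaction of -2.37 (SE 0.37, adjusted p = 0.00128), and Ggnbp1, a gene expressed in germ cells, had -2.84 (SE 0.55, adjusted p = 0.0357). Both had their highest levels in batch 1. Of 83 Postn UMIs in WT members of batch 1, 62 lay in the same barcode that held the Tnc UMIs, and 29 of 30 in KO members lay in 1 barcode with 104 endothelial and fibroblast UMIs. The other tumor barcodes of batch 1 held 125 Postn UMIs in the WT and 390 in the KO library. Without the barcodes of at least 10 such UMIs, Postn was too low to be tested. Of 78 Ggnbp1 UMIs in WT members of batch 1, 74 lay in 1 barcode with none of those markers, and without that library the interaction was -0.89 (adjusted p = 1.000). In the other tumor barcodes themselves, edgeR called 0 of 8066 genes between KO and WT (0.0%, with 316 at an unadjusted p under 0.05), and the 27 tested interferon genes had a median of 0.45 there.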

How the data were processed

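The deposited tables held unnormalized UMI counts, made by the authors for each of 31053 genes and every droplet of 10 libraries, empty ones included (10x Genomics 3' libraries, Cell Ranger 7.1.0 and mm10 per the submitters' processing notes). Whether introns were counted is not given in the sources used here. Their later clustering was not used. The members and the gene lists were chosen with earlier results of these data known.

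Member UMIs were summed per library, so that each library was 1 sample. Sums were compared with edgeR 4.0.16 in R 4.3.3 (quasi-likelihood test, TMM, filterByExpr, batch as a covariate, library size without Actb, Benjamini-Hochberg adjustment over all genes tested, threshold 0.05). The 31 score genes were not tested. The script was tested on simulated data. Shares were compared by exact two-sided permutation within batch (140 arrangements). Genes were named by list, with up to 4 tested genes of the highest mean CPM each, by share of UMIs (the 15 largest), by batch (5 per direction), by the difference from other tumor barcodes (10 per direction) and, since fewer than 3 genes were called, by the 5 smallest unadjusted p per direction. Oasl2, Oas3, Ifi44, Cmpk2, Iigp1, Fosb, Tap1, Tapbp and Fn1 were named after their values were seen. Some genes that these rules name are not reported here. The depth, 607 to 9863 UMIs per member at the median, limits sparse genes most. Alternatives covered the limits of the rule, thinning, batches, pooled and single libraries, DESeq2 1.42.0, filters and the replicate number as a block.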

Additional observations from a re-analysis of the deposited data

Results flagged for a closer look

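Dixon's rule marked a library that stood apart from the other 3 of its group within batch 2 in 13 of 166 groups of values examined, and chance marks about 1 in 20. KO 2+3 had 75.8% of its tumor barcodes at baseline, the other KO libraries 84.1% to 85.8%. WT 5 had a median of 1157 UMIs per member, the other WT libraries 607 to 673. Among genes of score E, Pvt1 was low in KO 1 (9579 CPM against 10875 to 11097) and Fmnl2 high in KO 4 (3364 CPM against 2733 to 2790).

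WT 4 stood apart in several genes. Irf7, an interferon-response regulator, was at 6.91 CPM (2.68 to 3.25 in the other WT libraries of batch 2), H2-D1 at 316 CPM (198 to 205), the chaperone gene Canx at 1240 CPM (1902 to 1945) and mt-Co1 at 428 CPM (1602 to 1795). WT 5 was low in the interferon-induced gene Xaf1 (4.94 CPM against 8.72 to 9.05) and in H2-T22 (8.03 CPM against 11.2 to 11.7). KO 2+3 was high in the immunity-related GTPase gene Irgm1 (25.7 CPM against 8.68 to 11.4) and in mt-Atp8 (7.80 CPM against 5.47 to 5.63). WT 1 was low in mt-Nd6 (56.7 CPM against 83.8 to 88.5).

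The KO effect differed between members and other tumor barcodes in Postn (interaction -2.37) and Ggnbp1 (-2.84), by a test of the difference itself. In the WT library of batch 1, 62 of 83 Postn UMIs and 74 of 78 Ggnbp1 UMIs of members lay in 1 barcode each. Postn also had 125 UMIs in the WT and 390 in the KO library among the other tumor barcodes of batch 1.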

How the results depend on the processing

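The share of tumor barcodes at baseline was below 0 for KO minus WT under all 20 alternatives and short of the threshold under the 18 that could have passed it, between -1.57 points (without KO 2+3) and -4.76 (without WT 5) when single libraries were left out. No gene was called between KO and WT under 24 of 25 alternatives. Without the filter on low counts 27 of 26071 genes were called (14 above and 13 below 0), Fbxo17, Gm11335, Lancl2, Osbpl3, Tnc, Gbp7, Iigp1 and Fosb among them. Counts for a KO effect that differs between members and other tumor barcodes moved from 2 to 18 without the filter, to 7 with a batch by state term, to 1 without barcodes of at least 10 endothelial or fibroblast UMIs, and ranged from 0 (without the WT library of batch 1) to 11 when single libraries were left out. Trp53, at -0.02, turned to 0.021 in batch 2 alone and 0.014 in all tumor barcodes, and ranged from -0.085 (without KO 1) to 0.107 (without WT 4) when single libraries were left out. The batch count kept within 1.5 times 7196 (5390 to 7407 when single libraries were left out). With the replicate number as a block in place of batch, 0 genes were called and 574 had an unadjusted p under 0.05, and the share gave p = 0.1875 (exact permutation, smallest possible p 0.0625). Without the pooled KO libraries the smallest possible p was 0.0667, so neither of these alternatives could pass. The deviations of same-numbered libraries correlated at -0.239, 0.250, -0.362 and 0.304, so the numbers did not pair the samples. The settings that dropped all 3 score limits, the stromal barcodes, or WT 5 with the pooled libraries, and the batch by state term were chosen after seeing the data. Sparse genes, the 208 members of batch 1 and free RNA near or above the limit of score E in both batches limit the precision.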

Other observations

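H2-K1, a class I MHC gene, stood at 15.2 CPM in members of WT 4 and at 107 to 182 CPM in the other 9 libraries, while H2-D1 was highest of the batch 2 libraries in WT 4. Gm26870 was at 2492 UMIs per 1000000 in members and at 75953 in droplets with at most 50 UMIs (medians of the batch 2 libraries, without TMM scaling). Rapgef4 had 496 UMIs in the WT members of batch 1, 390 of them in the barcode that held the Ggnbp1 UMIs. H2-K1 and Rapgef4 were named, and the free RNA of Gm26870 was reported, after their values were seen.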
